A study of Drosophila melanogaster with 2 samples.

Results

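The Smr and CG4004 peak cluster comprised every peak whose summit lay inside Smr or CG4004, or within 5 kb of either gene, on the X chromosome of the fly (dm6 build). Of the 1445 peaks that the authors kept at their irreproducible discovery rate (IDR) step, 10 were members, and peaks of that list are called IDR peaks here. The wider lists made before that step gave 30 members of 23030 peaks for both replicates pooled, 44 of 30000 for replicate 3 and 21 of 30000 for replicate 4. The locus was chosen by the number of its peaks in these same lists, so positions, spacing, signals, ranks and recurrence are given as descriptions with no test.

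The assay was ChIP-seq, in which chromatin bound by a protein is pulled down with an antibody, sequenced, and searched for places of high coverage (peaks). All embryos were of 1 transgenic Drosophila melanogaster line in which the CG15073 protein carried enhanced green fluorescent protein (eGFP) at its C-terminal end, and an anti-GFP antibody recovered the fusion. Whole embryos of both sexes aged 0 to 24 h formed the only group. Its 2 biological replicates carry the numbers 3 and 4, and no untagged or input library was analysed here. The labels do not state which promoter drives the tagged gene or whether the untagged gene was present. A whole embryo mixes many cell types and stages, so binding in few cells and weak binding in many cannot be told apart. Read depth is unknown from these lists.

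CG15073 belongs to the ZAD zinc finger family, several members of which bind DNA near promoters and chromatin boundaries. Smr (Smrter) is the fly relative of the mammalian nuclear receptor co-repressors SMRT and NCoR. It joins the ecdysone receptor and Su(H), the DNA-binding factor of Notch signalling, to histone deacetylase complexes and so to gene repression. Much of Smr is long introns, a kind of sequence in which fly enhancers are often found. CG4004 is its neighbour on the other strand, and no role is given to it here.

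Smr (FBgn0265523) spans X:12684203-12742618 on the minus strand, a length of 58416 bp with 4 transcripts and 3 start sites. CG4004 (FBgn0030418) spans X:12744212-12749785 on the plus strand, with 5 transcripts and 4 start sites, so the genes are transcribed away from each other. With 5 kb on each side they form 1 interval of 75583 bp. Also annotated there are the protein-coding gene CG15725 inside Smr, the end of Tis11, an RNA-binding protein gene of mRNA decay, and 5 non-coding RNA genes, lncRNA:SMRG, lncRNA:CR43963, asRNA:CR45623, lncRNA:Vinr and lncRNA:CR44619.

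The 10 IDR summits fell at 7 sites when summits under 500 bp apart were counted together, and the sites are lettered A to G from left to right along the plus strand. The windows below are the 201 bp centred on the strongest summit of each site (Release 6 assembly, plus strand, 5′ to 3′), shown because they hold the leading summit of every site; the second summits of A, C and D lie outside them. Capitals mark matches, on either strand, to the homeodomain core TAATTA, the GAGA factor element GAGAG, the BEAF-32 core CGATA and the GATA factor core TGATAA.
Site A: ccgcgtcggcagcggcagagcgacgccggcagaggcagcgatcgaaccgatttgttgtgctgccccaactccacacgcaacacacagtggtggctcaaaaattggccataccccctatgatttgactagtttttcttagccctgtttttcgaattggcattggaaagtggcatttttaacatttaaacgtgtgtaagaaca
Site B: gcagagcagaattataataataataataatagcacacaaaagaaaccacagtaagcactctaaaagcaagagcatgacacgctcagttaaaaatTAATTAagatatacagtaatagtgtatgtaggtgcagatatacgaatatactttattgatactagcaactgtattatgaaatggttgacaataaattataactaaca
Site C: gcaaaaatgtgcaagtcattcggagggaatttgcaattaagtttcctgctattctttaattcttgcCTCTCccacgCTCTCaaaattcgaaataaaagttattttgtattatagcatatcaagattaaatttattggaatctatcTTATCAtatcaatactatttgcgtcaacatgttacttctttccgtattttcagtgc
Site D: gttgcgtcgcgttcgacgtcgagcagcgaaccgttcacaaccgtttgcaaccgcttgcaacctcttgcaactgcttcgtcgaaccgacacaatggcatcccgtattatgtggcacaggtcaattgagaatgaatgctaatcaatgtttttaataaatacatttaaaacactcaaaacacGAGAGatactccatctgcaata
Site E: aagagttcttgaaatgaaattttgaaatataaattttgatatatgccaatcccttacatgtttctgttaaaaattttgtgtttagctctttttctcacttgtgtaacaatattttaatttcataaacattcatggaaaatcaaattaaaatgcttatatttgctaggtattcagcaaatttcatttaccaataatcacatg
Site F: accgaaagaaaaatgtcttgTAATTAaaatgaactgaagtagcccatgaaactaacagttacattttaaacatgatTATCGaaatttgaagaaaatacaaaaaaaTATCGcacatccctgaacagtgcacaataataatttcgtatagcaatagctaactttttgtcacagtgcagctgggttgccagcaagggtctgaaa
Site G: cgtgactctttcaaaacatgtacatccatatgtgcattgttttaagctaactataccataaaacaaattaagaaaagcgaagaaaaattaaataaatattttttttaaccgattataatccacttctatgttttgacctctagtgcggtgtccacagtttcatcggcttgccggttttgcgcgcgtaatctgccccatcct

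The windows lie at X:12716227-12716427 (site A), X:12734846-12735046 (B), X:12735520-12735720 (C), X:12742721-12742921 (D), X:12751287-12751487 (E), X:12752275-12752475 (F) and X:12754466-12754666 (G). In each of the 7, the window itself was the only match in the Release 6 assembly (BLAST, expect value up to 1e-05). Between 12.9% and 54.7% of the bases of these windows, the most at site E, are masked as repeat or low-complexity sequence in that assembly. The sites did not share a long stretch with each other either. Among the 21 pairs of sites the longest run of identical bases, on either strand, was 7 to 10 bases with a median of 9. Neighbouring IDR windows in the whole list shared a median of 8 (1427 pairs, range 6 to 51).

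Site A lay deep inside Smr and was the strongest of the locus. Its leading peak (X:12716142-12716501) had its summit at X:12716327 and a pooled signal of 818, the authors' peak strength on a scale that is not stated. That was rank 38 of the 1445 IDR peaks. The summit lay in the intron of 15664 bp (15646 bp in Smr-RG) between exons 2 and 3 of the transcripts Smr-RD and Smr-RF, which is the third intron of Smr-RE and Smr-RG. It was 26291 bp into the gene from its outermost start site. A second summit at X:12716527 had a signal of 104 and rank 631. The nearest annotated start site, of the non-coding transcript lncRNA:CR43963-RB in the same intron, was 2133 bp from the leading summit.

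Sites B and C lay in the intron that follows the first exon of Smr-RD and Smr-RF (10500 bp and 10412 bp long), which is the second intron of Smr-RE and Smr-RG (9048 bp). Site B had its summit at X:12734946, with a signal of 82.3 and rank 966. Site C had summits at X:12735620 (signal 125, rank 466) and X:12735826 (signal 77.3, rank 1095). These were among the weaker peaks of the locus, 6792 to 7672 bp inside Smr from its outermost start site.

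Site D lay between Smr and CG4004, at the promoter of Smr. Its leading peak (X:12742667-12742954) had its summit at X:12742821, 203 bp upstream of the start of Smr-RD, with a signal of 474 and rank 63. The summit was also inside the single-exon antisense gene asRNA:CR45623 (X:12742547-12742926), whose start site lies within 500 bp of it. The second summit, at X:12743032, lay 414 bp upstream of Smr-RD in no annotated gene, with a signal of 95.3 and rank 740.

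Sites E, F and G lay beyond the 3′ end of CG4004, in exons of long non-coding RNA genes. Site E had its summit at X:12751387 in the only exon of lncRNA:Vinr, 480 bp upstream of the start of lncRNA:CR44619, with a signal of 344 and rank 96. Site F, at X:12752375, had a signal of 289 and rank 119 and lay in the first exon of lncRNA:CR44619, 508 bp past its start and just outside the 500 bp used for start sites. Site G, at X:12754566, had a signal of 76.9 and rank 1101 and lay in the last exon of lncRNA:CR44619, 219 bp inside the border of the locus.

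**Figure D1:**
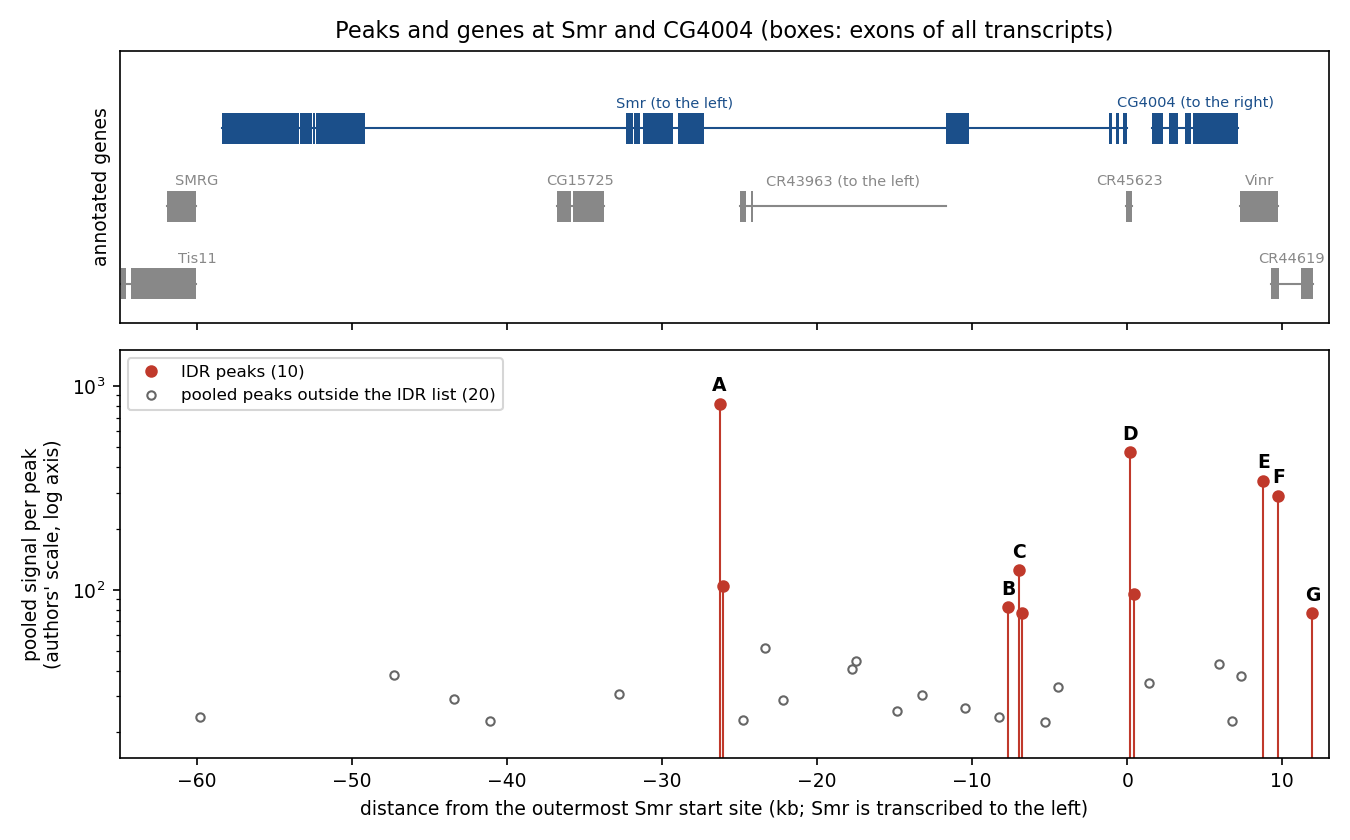
Genes and pooled peaks of the locus by distance in kb from the outermost Smr start site, with gene models above and the authors' signal per peak on a log axis below. The 10 IDR peaks (filled, sites A to G) have signals of 76.9 to 818 and the 20 other pooled peaks (open) 22.5 to 51.6; the left part of Smr has open points only.

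CG4004 itself held none of the 10 summits, although 5 lay within 5 kb of it. Smr held 5 and had 7 with its flanks, and the 2 of site D were counted for both genes. Between site A and the 3′ end of Smr, no IDR summit was found. The next IDR summits outside lay 12546 bp beyond the left border (X:12666657, signal 98.2, inside Tis11) and 375882 bp beyond the right border (X:13130667, signal 68.9). The locus thus ended on its right in a long stretch with no IDR peak.

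Of the 10 summits, 3 were within 500 bp of a start site, which is 30.0% (exact 95% interval 6.67 to 65.2, counting error only). Among all 1445 IDR peaks the share was 52.4%, and among the 274 on X it was 44.2%. The 3 were both summits of site D, at Smr and asRNA:CR45623, and that of site E. By site this was 2 of 7, since the interval treats the paired summits of D as independent. Another 5 lay in introns and in no exon, all of them in Smr, against 48.2% of all IDR peaks. None of the 4 CG4004 start sites had an IDR summit within 500 bp. With a limit of 200 bp in place of 500 bp, 0 of the 10 were at a start site.

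Signals within the locus fell into a strong and a weak part. The leading summits of A, D, E and F had signals of 818, 474, 344 and 289 and held 77.4% of the summed signal of the 10. The other 6 ranged from 76.9 to 125, while the median of all IDR peaks was 96.5. The 4 strong peaks were also the 4 that were narrower than the list's commonest width of 410 bp, at 360, 288, 298 and 215 bp. In the whole list the 160 narrower peaks had a median signal of 285, and the 1241 peaks of 410 bp one of 90.0. The 44 wider peaks of the list had the highest median, 1111, so strong peaks there were not only narrow ones.

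Both replicates held the strong sites. An IDR summit was counted as recurring in a replicate when a summit among that replicate's 1445 strongest lay within 200 bp. This held in both replicates for 7 of the 10, or 70.0% (exact 95% interval 34.8 to 93.3), against 62.9% of all 1445 IDR peaks. In replicate 3 it held for 9 of 10 (all IDR peaks 83.2%) and in replicate 4 for 8 of 10 (all IDR peaks 75.8%). These shares were near those of the whole list, and the IDR list was itself derived from both replicates. With summits required to lie within 50 bp the count was 3, and 4 when each replicate summit could serve only 1 IDR summit. The interval treats the 10 summits as independent, which those of a pair are not. By site, 5 of 7 had a summit recurring in both.

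The leading summit of site A stood at rank 33 of replicate 3 with a signal of 629, and at rank 56 of replicate 4 with 208, 3 and 1 bp from the pooled summit. Site D took rank 58 of replicate 3 (342) and rank 93 of replicate 4 (134), 24 and 4 bp away. Both sites were therefore near the top of both lists. Site E took rank 97 of replicate 3 (212) and rank 77 of replicate 4 (157), 53 and 12 bp away. Site F took rank 154 of replicate 3 (151) and rank 98 of replicate 4 (132), 3 and 16 bp away. All 4 were thus among the 154 strongest peaks of both lists, and A was the strongest of the locus in each. The order of D, E and F differed between the replicates, with D next after A in replicate 3 and E in replicate 4. Signals of separate lists have no shared scale and are not compared as amounts.

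The 3 summits that did not recur in both were those of B and G and the second of D. Site B ranked 765 in replicate 3 (signal 59.0) but 2181 in replicate 4 (signal 25.0), where it fell outside the 1445 strongest. Site G did the reverse, with rank 834 in replicate 4 (signal 37.0). In replicate 3 it had summits at ranks 1829 and 2984 (signals 36.6 and 29.1). At site C each replicate had only 1 summit within 200 bp of the pooled pair. In replicate 3 it lay at X:12735796 (rank 653, signal 64.1) and in replicate 4 at X:12735641 (rank 295, signal 64.8). The replicates therefore placed site C at different ends, each close to another of the pooled summits. The second summit of A had rank 598 in replicate 3 (signal 68.1), and in replicate 4 its only partner was the leading summit. The second summit of D had rank 201 in replicate 3 (signal 126), and the nearest in replicate 4 was 207 bp away, that of the leading summit.

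**Figure D2:**
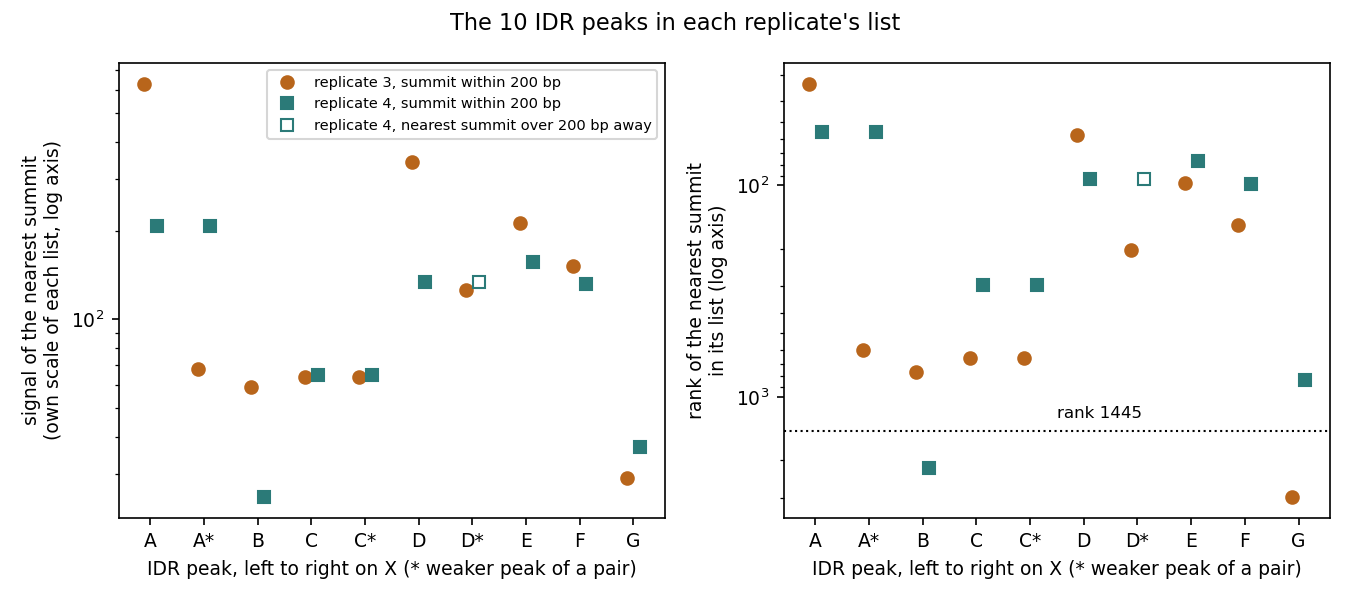
Signal (left) and rank (right, best at the top) of the summit nearest to each of the 10 IDR summits in replicate 3 (circles) and replicate 4 (squares), on log axes, with the weaker peak of a pair marked by an asterisk. The leading peaks of A, D, E and F stand at ranks 33 to 154 in both replicates, B lies below rank 1445 in replicate 4 and G in replicate 3; in replicate 4 both peaks of A, of C and of D have the same nearest summit.

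Neighbouring IDR summits of the locus were close, with a median gap of 988 bp over 9 gaps, against 34742 bp on X (273 gaps) and 39208 bp on all arms (1439 gaps). The locus was chosen for its many peaks, so a median gap shorter than these was fixed by that choice. The gaps from its outer summits to the next ones outside, 49670 and 376101 bp, are not among the 9. From left to right the 9 gaps were 200, 18419, 674, 206, 6995, 211, 8355, 988 and 2191 bp. The 3 gaps of 200, 206 and 211 bp lie within sites, and between the leading summits of the 7 sites the median gap was 4696 bp. In the stronger 722 IDR peaks the median gap in the locus was 7201 bp. Only the gap between sites A and B exceeded 10 kb, and on all arms 26.6% of gaps were shorter than that. The interval held 13.2 IDR summits per 100 kb, against 1.16 on X and 1.08 on the 6 chromosome arms. A density above theirs likewise follows from the choice of the locus. With the 1445 strongest peaks of replicate 4 alone, without replicate 3, the locus had 6 summits and a median gap of 7184 bp. With those of replicate 3 alone it had 8 and 1044 bp.

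In 3 places, at A, C and D, a pair of summits stood 200 to 211 bp apart with overlapping peak intervals. Such pairs, under 250 bp apart, took in 6 of the 10 IDR peaks here and 7.2% of all 1445. In the whole list 52 of 1439 gaps were under 250 bp, 0 were from 250 to 500 bp and 39 from 500 to 1000 bp. Why the stretch from 250 to 500 bp is empty was not tested, and the settings of the peak caller are unknown. The shortest gap in each of the 4 lists was 199 bp. The weaker summit of each pair had the commonest width of 410 bp. The stronger had 7.87 times its signal at A, 1.62 times at C and 4.97 times at D. Replicate 3 had separate strong summits for both members at A and D but not at C, and replicate 4 at none of the 3. Of all 52 pairs, 34 were separate in replicate 3, 16 in replicate 4 and 10 in both. Whether the weaker members are separate binding places was not tested.

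**Figure D3:**
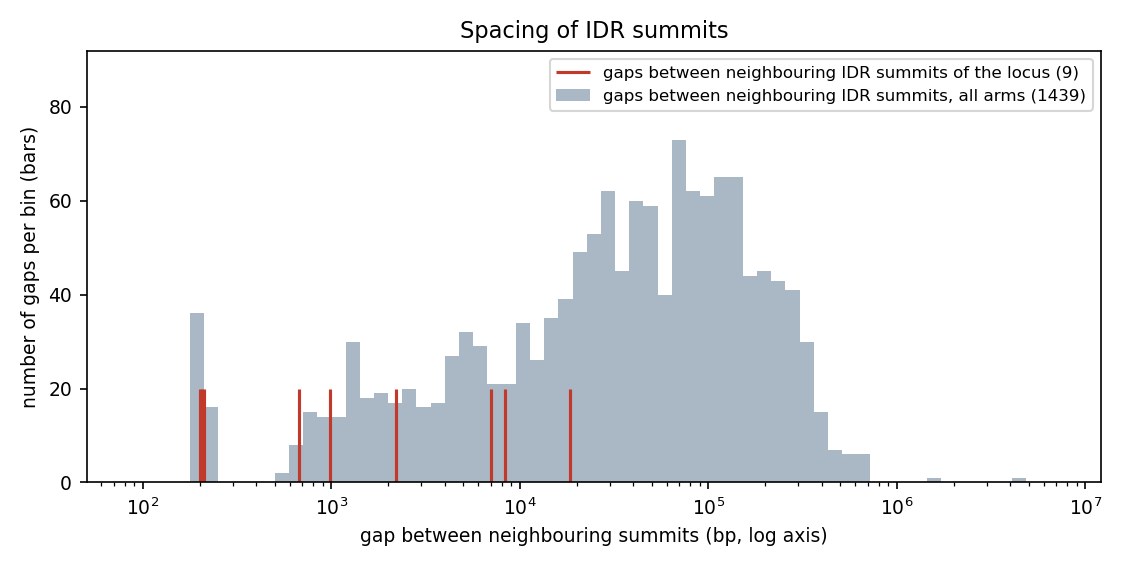
Gaps in bp between neighbouring IDR summits on a log axis, as lines for the 9 gaps of the locus (their height has no meaning) and bars for all 1439 gaps. The locus has 3 gaps of 200 to 211 bp in the narrow group at the left, which is set apart from the rest by an empty stretch from 250 to 500 bp.

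Weaker peaks were spread over the rest of the locus. The pooled list added 20 peaks with signals from 22.5 to 51.6 (median 29.7). The IDR peaks are the 1445 strongest pooled peaks, so every other pooled peak is below their weakest signal of 66.5. Of the 30 pooled peaks 10, or 33.3%, were IDR peaks, against 6.27% of all pooled peaks and 8.7% of those on X. The choice of the locus for its peaks enters this share. The strongest of the 20 lay at X:12719272 in the intron of site A, with a signal of 51.6 and pooled rank 2261. It had a partner in replicate 3 (rank 1874), and its nearest summit in replicate 4 was 2340 bp away. In the same intron were X:12725135 (signal 44.9, rank 2984) and X:12724865 (signal 40.9, rank 3738). X:12748554 (signal 43.2, rank 3282) lay in exon 2 of CG4004-RA, and X:12695301 (signal 38.3, rank 4473) in intron 6 of Smr-RD. Of the 20, 7 (35.0%) had a partner within 200 bp in both whole replicate lists, against 31.3% of all 21585 pooled peaks outside the IDR list.

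The replicate lists differed in how many weak peaks they placed in Smr. Replicate 3 had 30 peaks inside the gene and replicate 4 had 11. Both lists hold 30000 peaks. On X as a whole replicate 3 also had more peaks, 4467 against 3999. The 307 protein-coding genes of 50 kb or more together went the other way, with 4927 peaks in replicate 3 and 7141 in replicate 4. Of these genes 83 had more peaks in replicate 3, and only 10, Smr included, had an excess there of at least 19 peaks. Away from the IDR summits of the locus, the 34 peaks of replicate 3 had signals of 11.3 to 37.8 and the 14 of replicate 4 had 11.9 to 23.5, and none of either was among its list's 1445 strongest.

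Long genes mostly had no IDR summit inside. Of the 307, 222 had none, and 6, Smr included, had at least 5. Among all 13945 protein-coding genes, 21.2% had an IDR summit inside or within 5 kb, 5 (Smr included) had at least the 7 of Smr and 16 at least the 5 of CG4004. The genes nearest to Smr in that number, with ties settled by the nearest gene length and no summit shared between them, were ush, CHES-1-like, crp, shn and Hr4. The gene ush, a cofactor gene of GATA factors, had 7 summits at 7 sites with signals of 76.3 to 655. CHES-1-like, a forkhead gene, had 7 at 6 sites (73.5 to 250). The helix-loop-helix gene crp had 6 at 5 sites (71.6 to 922). The zinc finger gene shn of Dpp signalling had 5 at 5 sites (75.9 to 113), and the nuclear receptor gene Hr4 had 5 at 4 sites (80.2 to 146). Recurrence in both replicates held for 4 of the 7 summits of ush, 6 of 7 at CHES-1-like, 5 of 6 at crp, 3 of 5 at shn and 3 of 5 at Hr4.

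Genes of co-repressors and of the Notch and ecdysone pathways, not all of them partners of Smr in repression, were looked up in the same lists. Of 14 co-repressor and Notch or ecdysone pathway genes, 13 were matched by symbol and CSN2 was not. Of the 12 other than Smr, 5 (41.7%) had an IDR summit inside or within 5 kb, against 21.2% of protein-coding genes, and each of the 5 had 1. The WD-repeat gene ebi, whose protein works with Smr, had a signal of 76.8 at 179 bp from its start. The co-repressor gene gro had 180 at 113 bp from its start. These were the 2 of 12 with a summit within 500 bp of their own start (16.7%), against 6.75% of protein-coding genes. Further summits lay at the co-repressor gene Sin3A (signal 80.5, 1306 bp from a start), at the ecdysone receptor gene EcR (79.1, 5881 bp) and inside the Notch receptor gene N (137, 27660 bp). The deacetylase genes HDAC3 and HDAC1 had no IDR summit, nor had CtBP, CoRest, H, Su(H) and usp. The strongest peak of HDAC1 had rank 957 in replicate 3 (signal 52.1) and rank 4462 in replicate 4 (signal 20.8). Longer genes have more room for a summit, and this was not adjusted for. The list holds few genes and was chosen with earlier results of these data known, so no excess is drawn from these shares.

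Of 11 motifs searched on either strand within 100 bp of the 10 summits, 6 were found and 5 were not. The E-box CANNTG was in 8 of 10 windows, against 59.4% of all IDR windows and 64.0% of 19252 windows of the same length centred on protein-coding start sites. Within 50 bp of the summits it was in 4 of 10. The Pho core GCCAT was in 3 (29.7% of IDR windows, 30.8% of start-site windows). The homeodomain core TAATTA was in 2 (16.5% and 9.39%), at site B with its first base 6 bp left of the summit and at site F 80 bp left of it. GAGAG was in 2 (23.5% and 25.0%), with 2 matches at site C and 1 at site D. CGATA, which is also part of the DREF element, was in 1 (23.0% and 37.1%), with 2 matches at site F. TGATAA was in 1 (17.9% and 13.7%), at site C. The CTCF core AGNNGGCGC (3.60% and 1.92%), the DREF element TATCGATA (1.31% and 6.45%), the Zelda site CAGGTAG (1.25% and 1.08%), the Su(H) site GTGGGAA (1.80% and 2.25%) and the Tramtrack site CAGGACC (0.138% and 0.899%) were in 0 of 10, which allows a share of up to 30.0%. The windows of A, E and G printed above thus carry none of the 4 capitalised motifs, although A and E were among the strongest sites. Matches to the Pho core and the E-box are not capitalised. In these windows a Pho core began 4 bp right of the leading summit of A. E-boxes began 5 bp left and 95 bp right of the summit of E, and 74 bp left of that of G.

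The summits lay in sequence rich in A and T. The median A and T content of the 10 windows was 67.2%, with a range from 50.2% at the leading summit of A to 75.6% at its second summit and at E. Over all 1445 IDR windows the median was 64.7%, over start-site windows 57.7%, and over the whole locus the content was 59.4%. In the 100 bp around the summits the mean was 67.4%, against 54.7% at 250 to 500 bp to each side. All IDR peaks had 65.1% and 56.2% in the same places. The central part was richer in A and T than the flanks at 8 of the 10 summits and at 77.1% of all IDR summits. Neighbouring windows of a pair share flanking sequence, so the 10 are not independent. The leading summit of A, with the highest signal, had the lowest A and T content of the 10.

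**Figure D4:**
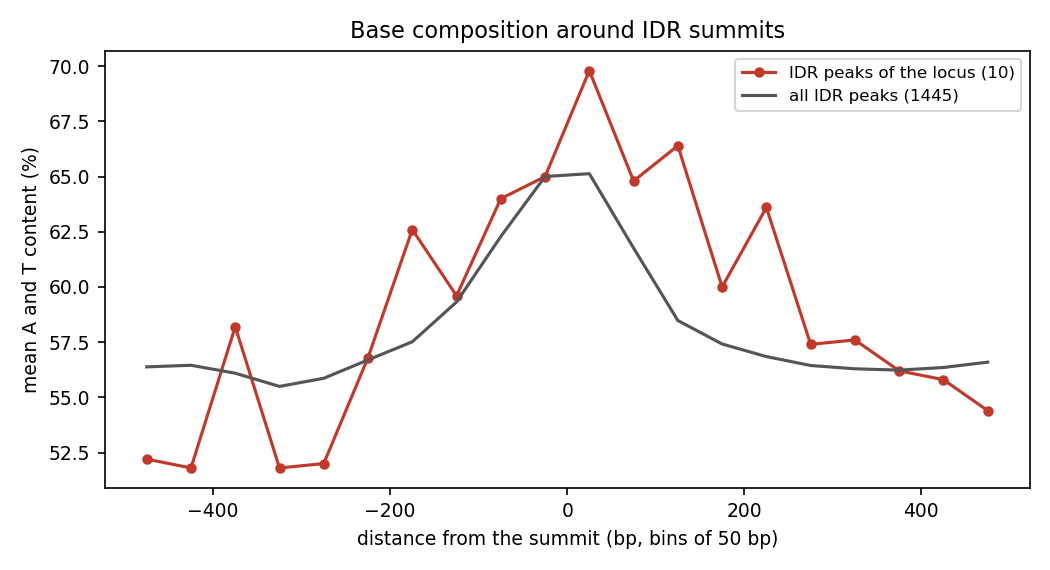
Mean A and T content in percent in bins of 50 bp around the summit for the 10 IDR peaks of the locus (points) and all 1445 IDR peaks (line); the vertical axis does not start at 0. Both curves are highest next to the summit, at 69.8% for the locus and 65.1% for all IDR peaks in the bin just right of it.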

How the data were processed

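Per the labels, sheared chromatin (200 to 800 bp) of 2 biological replicates of 0 to 24 h embryos was precipitated with an anti-GFP antibody. The authors deposited 4 peak lists on dm6, used here, and 4 on dm3, not used here. Per the texts deposited beside the lists, relaxed lists (each replicate alone, from its alignments plus a further input, and both pooled) fed the IDR step. No source used here gives the peak caller, aligner, IDR threshold or depth. Each deposited signal is a peak's strength on an unstated scale. The deposited −log10 q-value stood at its maximum of 3.24 for 7 of the 10 IDR peaks of the locus, so peaks were ranked by signal. Each of the 1445 IDR peaks is also in the pooled list with an equal signal and a rank of 1445 or better.

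Summits are the start plus the peak offset, 1-based. Genes came from Ensembl release 115 (BDGP6.54; transposable elements left out) and sequence from the RefSeq Release 6 assembly. The 9 genes of the locus have equal coordinates in both, and no dm6 peak ends beyond an arm. Motifs were matched as letters, with windows checked by BLAST 2.17.0. Functions were tested on made-up peaks and sequence. The members, lists and motifs were chosen with earlier results of these data known. Genes were named by rule: those of the locus, the 5 nearest to Smr in number of IDR summits inside or within 5 kb, and the co-repressor list. The 7 sites were defined after the peaks were seen. Per the labels, the replicates are separate samples of 1 line with separate preparation documents. No test was made, and exact intervals (scipy 1.17.1) cover counting error only.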

Additional observations from a re-analysis of the deposited data

How the results depend on the processing

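No paired analysis was possible because all samples form 1 group. The count of 10 IDR summits became 5 with no flank, 8 with 2 kb, 10 with 10 kb and 6 in the stronger 722 peaks of the list; with the strongest 1445 peaks of 1 replicate in its place it was 6 without replicate 3 and 8 without replicate 4. Counting summits under 500 bp apart once, an alternative added after the data were seen, gave 7. The 7 summits recurring in both replicates became 3 within 50 bp, 4 within 100 bp and 8 within 500 bp, and 4 when each replicate summit could serve only 1 IDR summit (also added later); they numbered 7 against the strongest 722 replicate peaks and became 9 against 2 times as many or the whole lists. In 1 replicate alone, 8 recurred without replicate 3 and 9 without replicate 4. Summits at start sites numbered 0 within 200 bp, 4 within 1000 bp and 2 for protein-coding starts, and 3 without replicate 3 and 2 without replicate 4. The median gap of 988 bp became 7201 bp in the stronger 722 peaks, 4696 bp between sites, 7184 bp without replicate 3 and 1044 bp without replicate 4. Median A and T content was 72.3% within 50 bp and 61.9% within 250 bp. For counts and gaps, fewer peaks or a stricter distance enter by construction, and a wider window cannot lose a motif match. A and T content was highest next to the summits, so wider windows took in sequence poorer in A and T. Why it was highest there was not tested. Depth is unknown, so no limit of detection can be given.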
